A study of Mus musculus with 4 samples.

Results

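The genes described here are 39 genes of lipid handling that are linked to the peroxisome proliferator-activated receptors (PPARs) and the liver X receptors (LXRs), out of 32496 genes represented on the arrays. They were taken by symbol from a fixed list, matched to the arrays through RefSeq accessions, and each was read from its brightest probe. Of the 39 members 38 were measured well enough to be tested, beside 17974 genes tested in all. Vldlr, a receptor for triglyceride-rich lipoproteins, was the untested member, because neither of its probes was well above background on any array.

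PPARs and LXRs are nuclear receptors that bind DNA as partners of the retinoid X receptors. PPAR gamma and PPAR delta answer to fatty acids and their derivatives and drive genes of fatty acid uptake, storage and oxidation, while the LXRs answer to oxidised cholesterol and drive genes of cholesterol efflux. Both families are active in macrophages and in dendritic cells grown from marrow, where PPAR gamma is known for its targets Fabp4 and Cd36 and the LXRs for Abca1 and Abcg1.

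The study set dendritic cells grown from bone marrow (BMDC) that carry a loxP-flanked Rbpj gene (Rbpj fl/fl, called RFF) against cells with the same alleles plus a CD11c-cre transgene (Rbpj fl/fl x CD11c-cre, called RFF11). Rbpj encodes a transcription factor that Notch signalling works through. The marrow came from female C57BL/6 mice aged 8 weeks and was kept for 6 days with GM-CSF at 20 ng/mL, after which cells positive for CD11c were isolated. Each genotype's RNA was a pool over 4 mice, and 2 one-colour Agilent arrays were hybridised for each genotype, 4 in all.

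RFF arrays are called control and RFF11 arrays Rbpj-deficient below. The cre is driven by the promoter of CD11c (gene Itgax), so deletion can start only in cells that have switched this promoter on. Both groups carry the loxP-flanked alleles and only the Rbpj-deficient group carries cre, so the loss of Rbpj and the presence of cre cannot be told apart. The labels do not say whether both arrays of a genotype had pools of their own, so the spread that the p-values rest on is that of these 4 arrays and may be technical. In bulk RNA, fewer cells of a type and less RNA per cell cannot be told apart. A level is the log2 signal of a probe relative to the 75th percentile of its array, so a level of 0 equals that percentile, and a change is the mean level of the Rbpj-deficient arrays minus that of the control arrays.

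Rbpj itself read 2.69 and 2.61 in control and 1.37 and 1.44 in Rbpj-deficient cells, which left 42.1% of the control level (limma adjusted p = 0.0278). Whether its probe lies in the deleted segment was not tested. Itgax read 6.63 to 6.69 on the control arrays and 6.45 to 6.65 on the Rbpj-deficient arrays. All 9 dendritic cell markers on the array were well above background on all 4 arrays. None of them passed limma's threshold. At an unadjusted p under 0.05, 3 were lower (33.3%, against 12.8% of all genes) and 1 higher (11.1%, against 11.2%). The arrays did not overlap for 5 on the lower side (55.6%, against 32.3% of all genes). Cd209a, a lectin of dendritic cells, read 4.17 on both control arrays and 3.39 and 2.29 in Rbpj-deficient cells, 39.7% of control (change -1.33, SE 0.39, limma adjusted p = 0.159). Between 55.2% and 58.4% of the 43020 gene spots of an array were well above background. The log2 difference between arrays had an SD of 0.25 within the control group, 0.23 within the Rbpj-deficient group and 0.36 to 0.38 across genotypes. Over all genes, 187 were higher (1.04%) and 151 lower (0.840%) in Rbpj-deficient cells at an adjusted p under 0.05.

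Angptl4 and Dgat2 rose in Rbpj-deficient cells, by 1.78-fold and 1.85-fold, and they were the 2 members of 38 that passed the threshold, against the 1.04% of all genes called higher. No member passed it as lower in limma's test, where 0.840% of all genes did. At an unadjusted p under 0.05, 12 members were lower (31.6%, against 12.8% of all genes) and 4 were higher (10.5%, close to the 11.2% of all genes). The arrays of the genotypes did not overlap for 22 members on the lower side (57.9%, against 32.3% of all genes) and for 9 on the higher side, where 26.8% of all genes lay.

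The median change of the 38 members was -0.12, beside -0.01 over all genes tested, and the median size of a change was 0.18 beside 0.12. Changes below 0 were found for 27 of 38 members (71.1%), and for 52.7% of all genes. Depending on how arrays were scaled, the number of members below 0 was 25 (quantile normalization) to 28 (median scaling). Between the threshold and an adjusted p of 0.1 lay 8 members, Pparg, Cd36, Lpl, Fabp4, Lipa, Npc2, Mgll and Abca1, and all 8 had lower values in Rbpj-deficient cells. Members were picked as a list with earlier results of these data known, and a shared direction among them is a description of these 4 arrays.

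**Figure D1:**
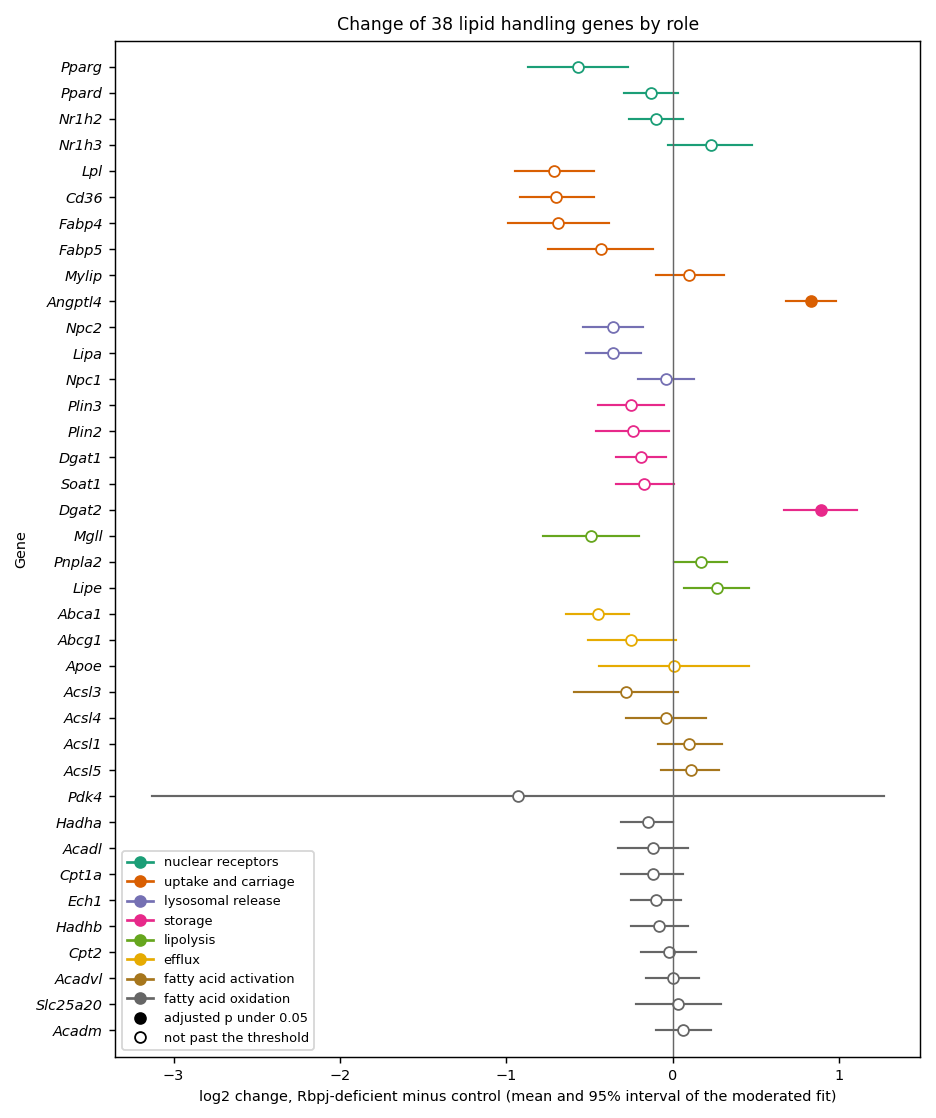
Change of each of the 38 tested members on a log2 scale (horizontal axis, Rbpj-deficient minus control), coloured by role, with the 95% interval of limma's moderated fit. Filled points, Angptl4 at 0.83 and Dgat2 at 0.89, passed an adjusted p of 0.05. Open points did not, among them Lpl, Cd36 and Fabp4 near -0.7 and the wide interval of Pdk4 from -3.13 to 1.27.

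Among the receptors, Pparg, which encodes PPAR gamma, had control levels of 1.02 and 1.12 and Rbpj-deficient levels of 0.62 and 0.37. Both Rbpj-deficient values lay under both control values, by 0.39 at the closest. The change was -0.57 (SE 0.11, 95% interval -0.87 to -0.27), or 67.3% of control, and limma's adjusted p was 0.0838. Nr1h3, which encodes LXR alpha, lay the other way, at 0.19 and 0.08 in control and 0.46 and 0.27 in Rbpj-deficient cells. Its change of 0.23 (SE 0.09) did not pass (limma adjusted p = 0.241), and its second probe gave 0.27. Ppard (PPAR delta, -0.13) and Nr1h2 (LXR beta, -0.10) had smaller differences, with limma adjusted p of 0.267 and 0.347. None of the 4 receptors passed the threshold, and their median change was -0.12. At an unadjusted p under 0.05 in limma's test, 1 of 4 was lower (25%, against 12.8% of all genes).

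RefSeq promoter windows of GRCm38.p6, which run from 250 bases before to 50 bases after a start, were found for 31 of the 39 members, in 40 windows. The 8 without a window were Abcg1, Angptl4, Dgat1, Dgat2, Fabp4, Fabp5, Lpl and Npc1. Both members past the threshold, and Lpl and Fabp4, were therefore not searched. The motifs searched on both strands were GTGGGAA, a binding sequence of RBPJ, and AGGTCA, the hexamer that PPARs and LXRs bind as direct repeats with their retinoid X partner. GTGGGAA stood in 3 of 40 windows (7.5%), those of Pdk4, Plin2 and the most downstream of 3 Pparg starts, and in 6.38% of the 32851 windows of all genes. AGGTCA stood in 7 of 40 windows (17.5%), which belong to Acadm, Acadvl, Cd36, Cpt1a, Plin2 and 2 starts of Pparg, and in 16.3% of all windows. AGGTCA repeated in the same direction with a gap of 1 or of 4 bases stood in 0 of 40 windows and in 0.0396% and 0.0152% of all windows. The shares of the members with a window are near those of all promoters. Shown are the 250 bases before the start for Cd36 and Pparg, which were among the members with lower values, and for Plin2. The Plin2 window is the only one that holds both motifs. Of the 3 Pparg windows, only the one with GTGGGAA is shown. The 2 others, not shown, hold AGGTCA at positions -28 and -9. Motif letters on either strand are in capitals, and the sequences run 5′ to 3′ along the gene. The first lies at chr5:17835897-17836146 (minus strand), the next at chr6:115421816-115422065 (plus strand) and the last at chr4:86670060-86670309 (minus strand).
Cd36: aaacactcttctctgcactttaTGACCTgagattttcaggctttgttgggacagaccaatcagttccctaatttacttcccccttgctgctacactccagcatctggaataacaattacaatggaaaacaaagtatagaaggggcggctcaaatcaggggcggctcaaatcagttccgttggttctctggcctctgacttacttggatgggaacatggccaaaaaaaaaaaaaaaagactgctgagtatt
Pparg: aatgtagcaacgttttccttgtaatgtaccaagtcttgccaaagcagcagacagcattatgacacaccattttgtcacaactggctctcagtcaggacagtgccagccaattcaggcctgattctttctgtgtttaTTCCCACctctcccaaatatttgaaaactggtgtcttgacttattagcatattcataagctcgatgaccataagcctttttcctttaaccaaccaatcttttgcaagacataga
Plin2: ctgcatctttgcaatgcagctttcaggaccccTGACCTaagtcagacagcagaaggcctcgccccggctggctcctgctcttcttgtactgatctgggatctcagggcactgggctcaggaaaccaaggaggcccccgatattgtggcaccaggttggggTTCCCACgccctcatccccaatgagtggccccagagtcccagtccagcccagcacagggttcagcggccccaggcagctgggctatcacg
In Cd36 the match to AGGTCA, on the opposite strand, began at position -228 from the start. In the Pparg window shown, the match to GTGGGAA began at position -114, also on the opposite strand. In Plin2 the AGGTCA match began at -218 and the GTGGGAA match at -90, again on the opposite strand. A match of letters is no measured binding site.

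In uptake and carriage, 1 of 6 tested members rose, where 1.04% of all genes were called higher, and none passed as lower. At an unadjusted p under 0.05 in limma's test, 4 were lower (66.7%, against 12.8% of all genes). Angptl4, a secreted inhibitor of lipoprotein lipase and a target of PPARs, had control levels of 0.40 and 0.36 and a level of 1.21 on both Rbpj-deficient arrays. It rose by 0.83 (SE 0.06, 95% interval 0.68 to 0.98; limma adjusted p = 0.0322), and the gap between the genotypes, 0.80, was far wider than the 0.05 between the control arrays. The size was 0.81 to 0.85 with any of the 4 arrays left out, but each of these left-out fits ended the call, with limma adjusted p of 0.12 to 0.15.

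Lpl, the lipoprotein lipase that Angptl4 inhibits, read 5.87 and 5.67 in control and 5.07 and 5.04 in Rbpj-deficient cells. The Rbpj-deficient arrays stood at 61% of control, a difference of -0.71 (SE 0.09, 95% interval -0.95 to -0.47), just outside the threshold (limma adjusted p = 0.0532). A second Lpl probe gave -0.66. Cd36, a scavenger receptor that takes up fatty acids and oxidised lipoproteins, read 2.27 and 2.13 in control and 1.55 and 1.45 in Rbpj-deficient cells. Its level there was 61.6% of control, a difference of -0.70 (SE 0.08, 95% interval -0.92 to -0.47; limma adjusted p = 0.0502). For both genes the lowest control array lay above the highest Rbpj-deficient array, by 0.60 for Lpl and 0.58 for Cd36. With arrays scaled to their medians, or with probes kept only when well above background on all 4 arrays, Cd36 and Lpl passed as lower (limma adjusted p of 0.0364 to 0.0434). Other settings moved them away from the threshold, with limma adjusted p of 0.103 and 0.108 with a replicate block, 0.286 and 0.292 with no filter on dim probes, and 0.124 to 0.197 without any 1 array.

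Fabp4, a fatty acid-binding protein of adipocytes and macrophages, read 1.95 and 2.22 in control and 1.40 on both Rbpj-deficient arrays. That was 62.1% of control (difference -0.69, SE 0.11, limma adjusted p = 0.0679), and the control arrays themselves were 0.27 apart. Fabp5, a related carrier of immune and epithelial cells, read 7.51 and 7.63 in control and 7.27 and 7.00 in Rbpj-deficient cells. Here the difference was -0.43 (SE 0.11, limma adjusted p = 0.136), again with no overlap. Mylip, an LXR target that encodes a ubiquitin ligase, gave 0.10 with one probe and -0.07 with the other. Over the 6 genes the median change was -0.56, and it was -0.47 and -0.63 on the 2 Rbpj-deficient arrays taken one by one against the control mean.

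**Figure D2:**
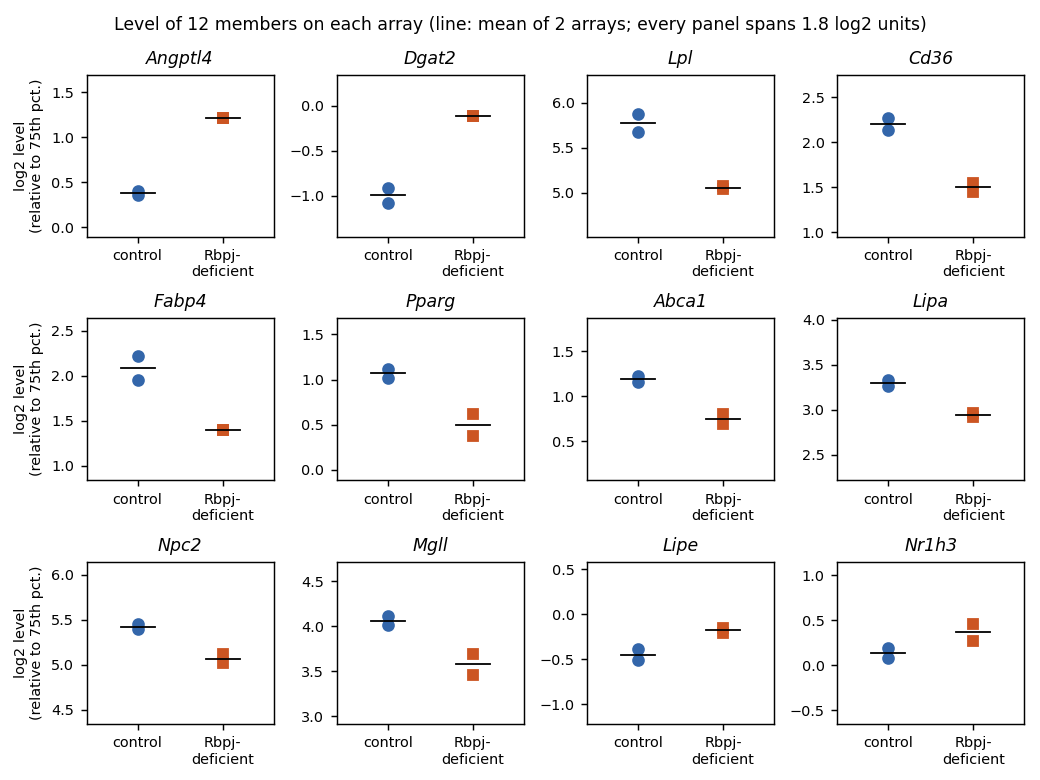
Level of 12 members on each of the 4 arrays (vertical axis, log2 relative to the array's 75th percentile, every panel spanning 1.8 log2 units); circles are control arrays, squares Rbpj-deficient arrays, and lines the mean of 2 arrays. The genotypes do not overlap in any of these panels, with Angptl4, Dgat2, Lipe and Nr1h3 higher and the other 8 lower on the Rbpj-deficient arrays.

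The genes that release lipid from lysosomes lay on the lower side. Lipa, the acid lipase that frees cholesterol and fatty acids from lipoproteins taken up by the cell, read 3.33 and 3.26 in control and 2.96 and 2.92 in Rbpj-deficient cells. Npc2, which binds the freed cholesterol inside the lysosome, read 5.40 and 5.45 in control and 5.12 and 5.02 in Rbpj-deficient cells. Both differences were -0.36, with limma adjusted p of 0.0712 for Lipa (SE 0.06) and 0.0813 for Npc2 (SE 0.07), and neither gene's arrays overlapped. Npc1, the membrane protein that receives cholesterol from Npc2, had overlapping arrays and a difference of -0.04 (95% interval -0.21 to 0.13). None of the 3 passed the threshold, and their median was -0.36. At an unadjusted p under 0.05 in limma's test, 2 of 3 were lower (66.7%, against 12.8% of all genes).

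Among the storage genes, Dgat2, which makes triglyceride in the last step of its synthesis, had control levels of -0.91 and -1.08 and a level of -0.11 on both Rbpj-deficient arrays. It rose by 0.89 (SE 0.08, 95% interval 0.67 to 1.11; limma adjusted p = 0.0379). The higher control array lay 0.80 under the Rbpj-deficient arrays, while the control arrays were 0.17 apart. Without any of the 4 arrays in turn the change was 0.80 to 0.97, and each omission ended the call (limma adjusted p of 0.12 to 0.163).

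Dgat1, an unrelated enzyme that catalyses the same step, had a difference of -0.19 (SE 0.06, 95% interval -0.34 to -0.04; limma adjusted p = 0.158), with no overlap between genotypes. Plin3, a coat protein of lipid droplets, read 4.31 and 4.39 in control and 4.16 and 4.04 in Rbpj-deficient cells (difference -0.25, SE 0.07, limma adjusted p = 0.154). Plin2, the main droplet coat protein of macrophages and a PPAR target, had a difference of -0.24 (limma adjusted p = 0.182). Soat1, which esterifies cholesterol for storage, had -0.17 (limma adjusted p = 0.215). So 1 of 5 storage genes rose, where 1.04% of all genes were called higher, and none passed as lower. At an unadjusted p under 0.05 in limma's test, 3 were lower (60%, against 12.8% of all genes). The median was -0.19.

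The lipases that act on stored lipid lay on both sides. Mgll, which splits monoglycerides in the last step of lipolysis, read 4.01 and 4.11 in control and 3.69 and 3.46 in Rbpj-deficient cells. The difference was -0.49 (SE 0.10, limma adjusted p = 0.0992), 2 further probes gave -0.58 and -0.56, and the dim probe that was left out gave -0.11. Lipe, the hormone-sensitive lipase, read -0.39 and -0.51 in control and -0.21 and -0.15 in Rbpj-deficient cells, a difference of 0.27 (SE 0.07, limma adjusted p = 0.136). Pnpla2, the lipase that starts the breakdown of triglyceride, had 0.17 (SE 0.06, limma adjusted p = 0.196). The lipases of the earlier steps thus had higher values on both Rbpj-deficient arrays than on either control array, and Mgll lower ones, but none of the 3 passed the threshold. At an unadjusted p under 0.05 in limma's test, 2 were higher (66.7%, against 11.2% of all genes) and 1 lower (33.3%, against 12.8%). The median of 0.17 describes Pnpla2 alone.

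In cholesterol efflux, Abca1, the LXR-driven transporter that hands cholesterol to apolipoprotein A-I, read 1.16 and 1.23 in control and 0.80 and 0.69 in Rbpj-deficient cells. That was 73.2% of control (difference -0.45, SE 0.07, limma adjusted p = 0.0662), with the genotypes 0.36 apart at the closest. Abcg1, which exports cholesterol to high-density lipoprotein, read 4.60 and 4.64 in control and 4.49 and 4.26 in Rbpj-deficient cells. Its difference was -0.25 (SE 0.10, limma adjusted p = 0.231), and the Rbpj-deficient arrays were 0.23 apart, the 4.26 of replicate 2 standing below the rest. Apoe, the apolipoprotein that carries cholesterol from macrophages, read 4.65 and 5.08 in control and 4.91 and 4.85 in Rbpj-deficient cells. Its control arrays enclosed the Rbpj-deficient ones, and the interval of its difference (0.01) ran from -0.44 to 0.46. None of the 3 passed, and 1 was lower at an unadjusted p under 0.05 (33.3%, against 12.8% of all genes). The median was -0.25. Read on the Rbpj-deficient arrays one by one, this median was -0.13 and -0.36.

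The acyl-CoA synthetases, which activate fatty acids for every later use, had differences between -0.28 and 0.11. Acsl3, a synthetase found on lipid droplets and the endoplasmic reticulum, read -1.08 and -1.27 in control and -1.56 and -1.36 in Rbpj-deficient cells, a difference of -0.28 (SE 0.11, limma adjusted p = 0.232). Acsl5 read 2.31 and 2.38 in control and 2.42 and 2.48 in Rbpj-deficient cells, a difference of 0.11 (SE 0.06, limma adjusted p = 0.369). Acsl1, the PPAR target of the family, had 0.10, and Acsl4, which prefers arachidonic acid, had -0.04. None of the 4 passed. In limma's test 0 had an unadjusted p under 0.05, where 12.8% of all genes were lower and 11.2% higher. The median of 0.03 turned to -0.05 without control replicate 2.

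Fatty acid oxidation was the largest role. Over all genes, 12.8% were lower and 11.2% higher at an unadjusted p under 0.05 in limma's test. Of the 10 oxidation members, 0 had such a p. Leaving Pdk4 aside, their differences ran from -0.15 to 0.06. Hadha, the alpha subunit of the mitochondrial trifunctional protein, had the lowest of these, at 0.18 and 0.12 in control and 0.01 and -0.01 in Rbpj-deficient cells (difference -0.15, 95% interval -0.31 to 0.00, limma adjusted p = 0.214). Its partner subunit Hadhb had -0.08. Cpt1a, the entry enzyme that PPARs drive, had -0.12 (95% interval -0.31 to 0.06), and its second probe gave -0.14. Cpt2 and the carrier Slc25a20, which complete the shuttle of acyl groups into mitochondria, had -0.02 and 0.03.

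The acyl-CoA dehydrogenases Acadl, Acadm and Acadvl, which take long, medium and very long chains, had -0.12, 0.06 and -0.00, and the isomerase Ech1 had -0.10. Pdk4, a PPAR-driven kinase that turns cells from glucose to fatty acid use, read -4.85 and -5.14 in control and -7.05 and -4.80 in Rbpj-deficient cells. The reading of -7.05, on replicate 1, was not well above background, and the difference of -0.93 (SE 0.80) was -0.18 after normexp background correction and 0.19 without that array. For the 10 genes the median was -0.09, and 8 were below 0. The arrays did not overlap for 5 on the lower side (50%, against 32.3% of all genes). On the higher side they did not overlap for 1, where 26.8% of all genes lay. The median was -0.05 without control replicate 1 and -0.04 without Rbpj-deficient replicate 1.

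Set side by side, the median change was -0.56 for uptake and carriage (6 genes), -0.36 for lysosomal release (3), -0.25 for efflux (3), -0.19 for storage (5), -0.12 for the receptors (4) and -0.09 for oxidation (10). It was above 0 for fatty acid activation (0.03, 4 genes) and for lipolysis (0.17, 3 genes). Uptake and carriage held 4 of the 12 members that were lower at an unadjusted p under 0.05, storage 3 and oxidation none. Over all genes 12.8% were lower at that level, and among 10 genes a count of none is not far from that share. Differences between roles were not tested, since genes are not replicates of a role. On the Rbpj-deficient arrays taken one by one the medians were -0.47 and -0.63 for uptake, -0.17 and -0.20 for storage, -0.13 and -0.36 for efflux and -0.07 and -0.04 for oxidation. Uptake had the lowest and oxidation the highest of these 4 medians on both arrays, while efflux and storage changed places between them.

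**Figure D3:**
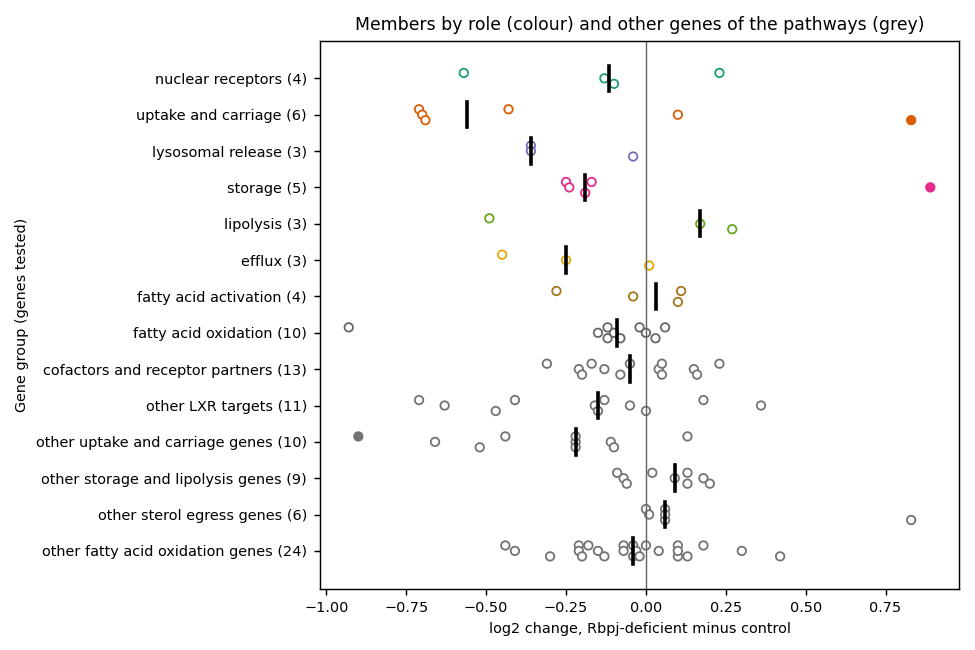
Change of each gene (horizontal axis, log2, Rbpj-deficient minus control) by role, for members in colour and for other genes of the same pathways in grey, with the number tested in brackets; black bars are medians and filled points passed an adjusted p of 0.05. The bar of uptake and carriage is at -0.56 and that of oxidation at -0.09, and Angptl4 and Dgat2 stand apart from the rest of their roles.

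A wider list of 81 genes of the same pathways was read in the same way, of which 73 were tested. Only Fabp3 passed the threshold among them, and no gene passed as higher. At an unadjusted p under 0.05 in limma's test, 16 were lower (21.9%, against 12.8% of all genes) and 8 higher (11%, close to the 11.2% of all genes). The median of the 73 was -0.05. Fabp3, a fatty acid carrier best known from heart muscle, read -1.75 and -1.86 in control and -2.75 and -2.65 in Rbpj-deficient cells. It fell by 0.90 (SE 0.07, limma adjusted p = 0.0379), with a gap of 0.79 between the genotypes.

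The other uptake and carriage genes had a median of -0.22, and 9 of 10 were below 0. Slc27a3, of the fatty acid transport protein family, had -0.66 (limma adjusted p = 0.0518). Of 11 other LXR targets 8 were below 0, with a median of -0.15. Pltp, which moves phospholipid between lipoproteins, lay farthest from 0 at -0.71 (limma adjusted p = 0.0697). Srebf1, the LXR target that drives fatty acid synthesis, had -0.05, and Fasn, the fatty acid synthase, had 0.18.

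Cofactors and receptor partners had a median of -0.05 over 13 genes, with Ppargc1b, a coactivator of oxidative genes, farthest from 0 at -0.31 (limma adjusted p = 0.211). The retinoid X receptors Rxra, Rxrb and Rxrg had 0.16, 0.04 and -0.21. Other storage and lipolysis genes had a median of 0.09 over 9 of 14 genes, and Lpin2, a phosphatidate phosphatase, lay farthest from 0 at 0.20 (limma adjusted p = 0.14). Among 6 other genes of sterol egress the median was 0.06. Ch25h, which makes 25-hydroxycholesterol, an oxysterol, read -0.13 and -0.31 in control and 0.79 and 0.42 in Rbpj-deficient cells, a difference of 0.83 (limma adjusted p = 0.0818). Another 24 genes of fatty acid oxidation had a median of -0.04. At an unadjusted p under 0.05, 5 of them were lower (20.8%, against 12.8% of all genes) and 3 higher (12.5%, against 11.2%). Crat, which moves acetyl groups onto carnitine, lay farthest from 0 at -0.44 (limma adjusted p = 0.102).

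Several members are also known from adipocytes or macrophages, and of the marker lists read here the wider pathway list already holds Plin1, Cidec and Mertk. Of 7 adipocyte markers none was well above background on all 4 arrays, and Adipoq, Lep and Plin1 were not well above background on any. Macrophage markers, 9 on the array, summed to a log2 level of 7.79 and 7.80 in control and 7.82 and 7.79 in Rbpj-deficient cells. Csf1r, the brightest of them at 7.27 to 7.32, makes up most of that sum, which hides the single genes. At an unadjusted p under 0.05 in limma's test, 3 of 9 were lower (33.3%, against 12.8% of all genes) and 2 higher (22.2%, against 11.2%). Mrc1 had -0.46 (limma adjusted p = 0.0679), Cd14 -0.28 (limma adjusted p = 0.183) and Adgre1 0.34 (limma adjusted p = 0.0766). Within that list the scavenger receptor Marco rose by 1.29 (limma adjusted p = 0.0322) and the Fc receptor Fcgr1 fell by 0.61 (limma adjusted p = 0.0424). Neutrophil and granule markers summed to 4.44 and 4.64 in control and 5.49 and 5.18 in Rbpj-deficient cells. Of 8 tested, Mpo and Ngp passed the threshold as higher, as 1.04% of all genes did. At an unadjusted p under 0.05 in limma's test, 7 were higher (87.5%, against 11.2% of all genes). Mpo was dim, at -3.97 to -3.17, and its change of 0.74 was 0.45 after normexp background correction. Elane lay lower without overlap (-0.14, limma adjusted p = 0.264). S100a9 (0.85) and S100a8 (0.83), the brightest of the list, did not pass (limma adjusted p = 0.0813 and 0.0712). Retnlg was not well above background on any array. Mast cell and basophil markers summed to 0.39 and 0.53 in control and 1.10 and 0.83 in Rbpj-deficient cells. Among 4 tested, Hdc passed the threshold as higher, and 3 were higher at an unadjusted p under 0.05 (75%, against 11.2% of all genes). Cpa3 (0.77) and Mcpt8 (1.13) lay higher without overlap but did not pass. Kit, the brightest of the list, had overlapping arrays (0.25, limma adjusted p = 0.458). Fcer1a and Ms4a2 were not well above background on any array. Lymphoid markers summed to -0.04 and -0.39 in control and -0.13 and 0.02 in Rbpj-deficient cells. Among 3 tested, Klrb1c passed as higher, and 2 were higher at an unadjusted p under 0.05 (66.7%, against 11.2% of all genes). Klrb1c was dim, at -4.68 to -3.38, and its change of 1.14 was 0.59 after normexp background correction. The dendritic cell markers summed to 9.61 and 9.55 in control and 9.49 and 9.39 in Rbpj-deficient cells. That sum does not show the single genes, which besides Cd209a included the chemokine receptor Ccr7 at -0.48 (limma adjusted p = 0.0931), the transcription factor Irf4 at -0.26 (limma adjusted p = 0.183) and the cytokine receptor Flt3 at 0.38 (limma adjusted p = 0.064). The part of the dendritic cell, macrophage, granulocyte, mast cell and lymphoid genes in the lipid genes' differences was not tested.

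**Figure D4:**
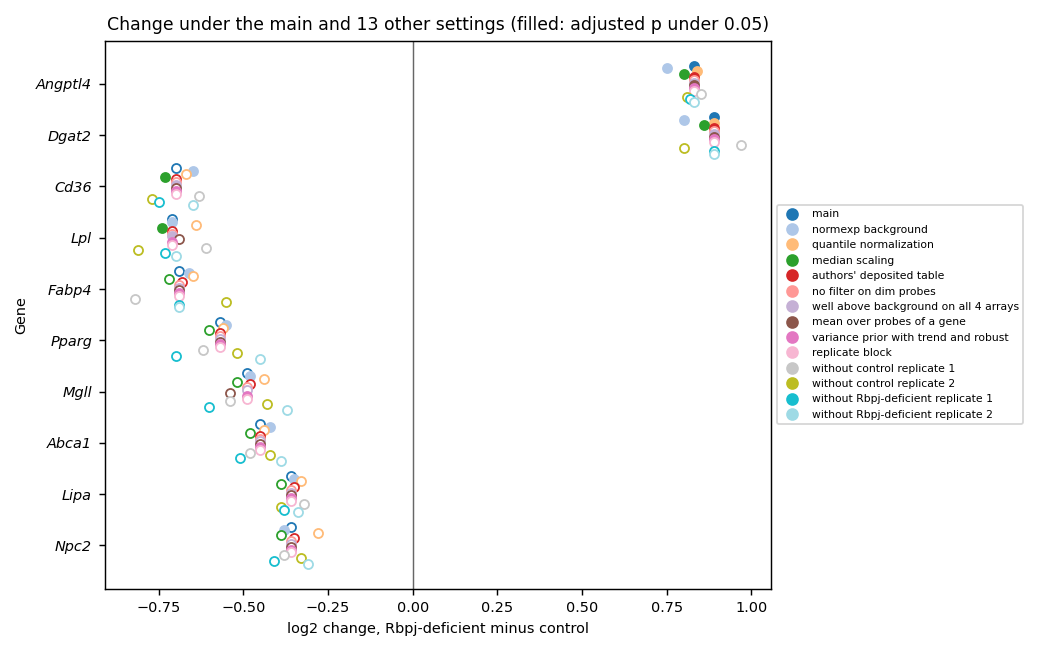
Change of 10 members (horizontal axis, log2, Rbpj-deficient minus control) under the setting used in the text and 13 other settings, one colour each; filled points passed an adjusted p of 0.05. Angptl4 stayed between 0.75 and 0.85 and Dgat2 between 0.80 and 0.97, and Cd36 (-0.77 to -0.63) and Lpl (-0.81 to -0.61) passed under 4 settings each.

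Across 13 other settings 31 of the 38 members kept the sign of their change. The 7 that did not were Npc1, Apoe, Acsl4, Cpt2, Slc25a20, Acadvl and Pdk4. The same 7 were the tested members whose arrays overlapped between the genotypes. For the 31 without overlap, leaving out an array could not reverse the sign. The variance prior, the replicate block and the other filters keep the changes, so they could not reverse it either. Only background correction, scaling, the deposited table and the mean over probes could have done so for the 31. Angptl4 and Dgat2 each passed the threshold under 7 of the 13. The 8 members with an adjusted p between the threshold and 0.1 all passed as lower after normexp background correction, and again with limma's trended and robust variance prior.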

How the data were processed

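Gene expression was measured on 4 one-colour arrays, 2 per genotype, with 150 ng of Cy3-labelled RNA per sample. The software for spot intensity was Agilent Feature Extraction 10.7.1.1, per the submitters' processing notes, and the deposited processed signal is background-subtracted per the file headers. The deposited files also flag each spot as well above background or not, as saturated and as an outlier. Outlier spots (127 to 176 per array) were left out, 0 spots were saturated, and 0 columns of other samples were present. All 4 arrays lay on 1 slide. How position on the slide lined up with genotype was not examined, and an effect of position was not tested. The authors also deposited a table of log2 values, made by steps that are not given in the sources used here. By comparison with the scanner values, it was scaled per array and centred per probe, in the same direction (Pearson r across 39429 probes of 0.99995 to 0.99996, column medians 0.0531, -0.0305, -0.034 and 0.0201). It served as an alternative.

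Signal was taken to log2, minus each array's 75th percentile over gene spots, with replicate spots averaged. A probe was kept where 1 genotype or both had it well above background on each array, and the brightest probe stood for its gene. Genotypes were compared with limma 3.58.1 (lmFit, eBayes; R 4.3.3), p-values were adjusted over 17974 genes by Benjamini-Hochberg, and the threshold was 0.05. The procedure was tested on simulated data with changes of at least 1 log2 unit, larger than any member's change in the main fit. Recovery of changes as small as those of the members was not examined. SE and intervals are those of the moderated fit, whose precision the number of arrays limits. Python 3.11.15 with pandas 2.3.3 and matplotlib 3.10.9 was used for counting and drawing. Probes were named by matching accessions to RefSeq annotation of GRCm38.p6: 26055 of 39429 probes received 1 symbol, 0 several and 13374 none, so 12756 genes tested had a symbol and the rest were counted by accession or probe. Apoc2 and the markers Zbtb46, Cd68 and Ly6g were not matched.

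Members and lists were chosen with earlier results of these data known. All members are named, with array values for those past the threshold and the 2 of each role with the largest change. Of the other pathway lists, those past the threshold or the 1 farthest from 0 are named. Array values of Cd36, Fabp4, Fabp5, Nr1h3's second probe, Apoe and Ch25h, and the values of Slc27a3, Srebf1, Fasn, the retinoid X receptors and single markers, were added after their values were seen. Arrays with the same replicate number shared little deviation from their group means (correlation across genes -0.047). That value cannot show whether the arrays were paired by design, which the labels do not say. Alternatives were normexp background correction (offset 50, on the median signal, as the files used here hold no mean signal), quantile and median scaling, the deposited table, other filters, the mean over probes, a trended robust variance prior, a replicate block and leaving out each array.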

Additional observations from a re-analysis of the deposited data

How the results depend on the processing

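The 2 members past the threshold as higher were also 2 under normexp background correction, quantile normalization, median scaling, the deposited table, a filter on all 4 arrays, the mean over probes and the trended robust prior. They were 0 with no filter on dim probes, 0 with a replicate block (smallest adjusted p in limma over all genes 0.0676, with 3677 genes at an unadjusted p under 0.05), and 0 without any 1 of the 4 arrays, where a lone array was assumed to vary like the other group. Over all genes the count of 338 became 886 with normexp, 1547 with the trended robust prior (44.9% of them higher, against 55.3%), 0 with no filter, 0 with the replicate block and 0 to 1 without 1 array (2976 to 3506 at an unadjusted p under 0.05). Members past the threshold as lower numbered 0 in limma's main test and without any 1 array (11 to 15 members then had an unadjusted p under 0.05), 8 with normexp, 2 with median scaling, 2 with the filter on all 4 arrays and 8 with the trended robust prior. The median of all members was -0.10 under quantile normalization, -0.15 under median scaling and -0.15 to -0.11 without 1 array, while that of all genes was 0.01, -0.04 and -0.01. For oxidation these medians were -0.06, -0.12 and -0.09 to -0.04, for the receptors -0.09, -0.15 and -0.13 to -0.10. Lysosomal release gave -0.28 under quantile normalization and -0.38 to -0.31 without 1 array, uptake and carriage -0.63 to -0.46 and efflux -0.36 to -0.13 without 1 array. The cause was not tested. Of 117 alternative values for the medians, 103 lay within the spread between arrays and 14 moved beyond it. Those with the trended prior and the replicate block could not differ, as these settings keep the changes. Among medians that lay farther from 0 than that spread, 0 reversed. The median of fatty acid activation lay within it and went from 0.03 to -0.05 without control replicate 2. The slide as a block could not be fitted, as there was 1 slide, and Pdk4 had no value under the filter on all 4 arrays. Signal over background limits Pdk4 and Vldlr.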
